A study of Homo sapiens with 12 samples.

Results

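SW480 cells given GLY and PUE together were compared with SW480 cells given neither. Members were chosen by label: the 3 libraries labelled with the combination of GLY and PUE and the 3 labelled untreated, 6 of the 12 libraries of the series, with all 3699 genes of the deposited table. SW480 is an established human colorectal adenocarcinoma line. Cells sat for 12 h in medium containing 10% serum, followed by 12 h with or without treatment, and RNA was taken from whole cultures. The other 6 libraries are 3 of PUE alone, labelled 12 h, and 3 of GLY alone, labelled 12, 13 and 14 h. The names GLY and PUE are used as the labels give them, and no dose is given there. The series' title places the work in a study of a herbal decoction and Wnt signalling, so Wnt genes are described at length below.

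In Wnt signalling, secreted ligands bind Frizzled receptors and stop a complex built on APC and AXIN proteins from marking beta-catenin (CTNNB1) for destruction. Beta-catenin then enters the nucleus and, with TCF and LEF factors, switches on targets that include the pathway's own inhibitors. SW480 carries a truncated APC, so this output runs without a ligand. Cells under protein-folding, oxidative or metal stress switch on other sets of genes: chaperones of the endoplasmic reticulum in the unfolded protein response, cytosolic heat shock proteins, targets of ATF4 and NRF2, and metallothioneins.

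The 6 libraries held between 19.9 M and 21.1 M reads (M, 1000000 reads), as recovered from the table, and levels are given as CPM, counts per M of these reads, which do not correct for gene length. A count of 0 allows up to 0.151 CPM in the shallowest of them (3 counts), which covers counting error only. The listed genes took 14.4% ± 0.529 (SD, n = 3) of the untreated reads and 15.3% ± 0.110 (SD, n = 3) of the treated reads. The authors listed genes that passed their own thresholds in at least 1 of 6 comparisons. Of the 3699 genes, 2552 (69.0%) passed in the authors' deposited comparison of these same groups, so high shares of changed genes are built into the table. In the untreated, PUE and GLY plus PUE groups the library numbered 3 lay away from the other two: over tested genes its median absolute difference on the log2(CPM + 0.1) scale was 0.37 to 0.45, against 0.11 to 0.16 between numbers 1 and 2. In the GLY group replicate 1 lay away (0.70 and 0.86, against 0.38 between numbers 2 and 3), and it enters the shared estimate of spread. Counts of calls and the fold changes of named genes were also computed without the libraries numbered 3, without each single library and with the 6 compared libraries alone. Of 11 markers of colorectal epithelium used here, VIL1 and CDX2 are in the table, and their summed level ran from 71.0 to 95.6 CPM in untreated and from 13.7 to 15.6 CPM in treated libraries. Of 6 leukocyte markers only CD68 is listed (3.83 to 5.98 against 17.8 to 23.7 CPM), of 6 fibroblast markers only PDGFRB (0.847 to 1.01 against 1.76 to 3.78 CPM), and of 5 endothelial markers none. Their part in the results was not tested. The labels do not say whether the replicates are separate cultures; if they are not, the p-values measure technical spread only.

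Most listed genes differed between the groups. Chaperone genes and targets of stress factors were mostly higher in treated cells, while Wnt feedback, HOX, interferon and proliferation genes were mostly lower. Of 3429 genes with enough counts to test, 2926 (85.3%) passed edgeR's quasi-likelihood test at an adjusted p under 0.05. Of these, 761 (22.2% of those tested) were higher and 2165 (63.1%) lower, and the median log2 fold change of all tested genes was -1.03. In 2993 genes (87.3%) the 3 treated and 3 untreated levels did not overlap. Within number-matched pairs, 803 genes (23.4%) were higher in all 3 pairs and 2467 (71.9%) lower in all 3. Without the libraries numbered 3, 554 genes were called higher and 1617 lower; with the 6 libraries alone the counts were 751 and 2257, and without GLY replicate 1 they were 794 and 2444. Bulk RNA gives levels per culture, so fewer cells of a type and less RNA per cell cannot be told apart.

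The split between higher and lower depends on the scale. Scaling by total reads keeps the fall of the typical listed gene in view, while TMM scaling centres on the listed genes themselves and moves the median log2 fold change up by 1.01. Under TMM scaling 1322 genes (38.6%) were called, 838 (24.4%) higher and 484 (14.1%) lower, so the lower genes made up 36.6% of the calls in place of 74.0%. All 761 genes higher by total reads were also called higher under TMM scaling, and 484 of the 2165 lower genes were also called lower. Another 436 called genes had the other sign under TMM scaling, and none of them passed the test there. Each group of genes below is therefore given under both scalings: a gene lower under both fell by more than the typical listed gene. List counts are to be read beside the shares of all tested genes, which were 24.4% higher and 14.1% lower under TMM scaling. The plot of fold change against untreated level shows calls in both directions from rare to abundant genes, with 175 higher and 198 lower among the 543 genes under 1 CPM and 85 higher and 230 lower among the 339 over 100 CPM.

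**Figure D1:**
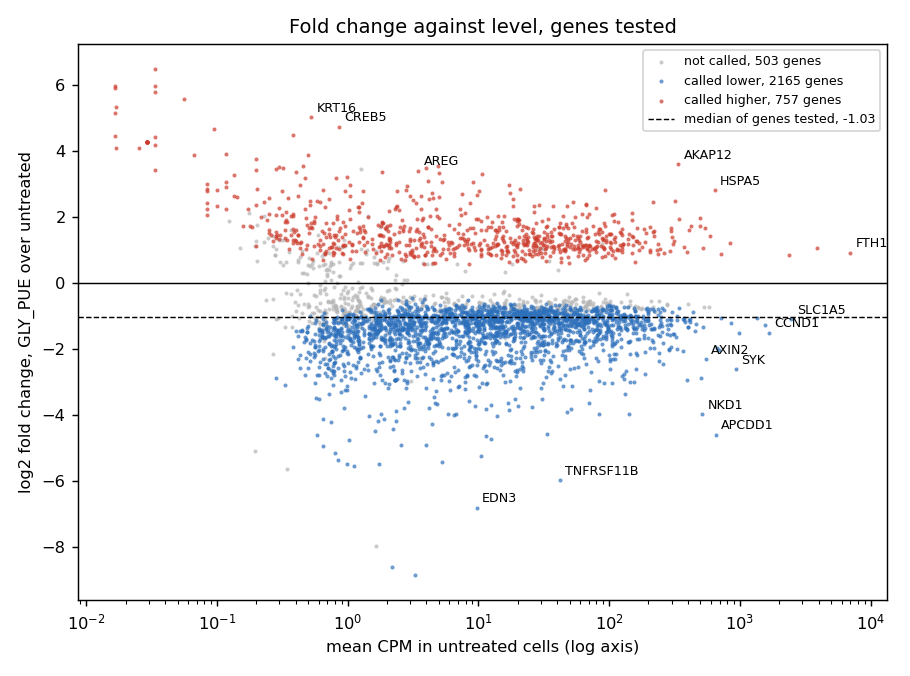
Log2 fold change of GLY plus PUE over untreated (vertical) against mean untreated CPM (horizontal, log axis) for each tested gene, coloured by edgeR call. Genes called higher and lower lie at all levels, and lower genes are the more numerous; the 4 higher genes whose untreated mean is 0 are not drawn.

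Genes were ranked here among those called, with a mean level of at least 1 on the log2 CPM scale and groups that did not overlap. Separate groups are therefore built into this choice. The largest increases were in genes little read in untreated cells. Rarer genes, some at 0 there, had larger fitted changes that rest on few counts. KRT16, a keratin of stressed and regenerating epidermis, stood at 0.599, 0.483 and 0.498 CPM in untreated replicates 1 to 3 and at 16.5, 17.0 and 17.9 CPM with GLY plus PUE. Each group was tight, and the log2 fold change was 5.01 (SE 0.33, adjusted p 7.15e-06). CREB5, a transcription factor of the CREB and ATF family, went from 0.899, 0.705 and 0.947 to 14.8, 16.3 and 44.8 CPM (4.73, SE 0.45). ROBO4, a Roundabout receptor, went from 0.599, 0.302 and 0.249 to 6.39, 5.62 and 16.6 CPM (4.47, SE 0.53). Its log2 fold change was 5.12 without untreated replicate 1, 3.73 without the libraries numbered 3 and 3.61 by limma on log2 FPKM. In CREB5 and ROBO4 the highest treated library was replicate 3. PAK6, a p21-activated kinase, rose by 3.86 and ACP7 by 3.46 on the log2 scale. DIRAS3, a RAS-related GTPase, rose by 3.46 (2.8 without untreated replicate 3) and IL1R1, the interleukin-1 receptor, by 3.49.

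AKAP12, a scaffold for protein kinase A, combined a large fold with a high level. It stood at 441, 435 and 134 CPM in untreated and at 4033, 4211 and 2891 CPM in treated libraries, a log2 fold change of 3.59 (SE 0.51, adjusted p 0.000192). Replicate 3 was the lowest library in both groups. HMGA1, a chromatin architectural protein, rose from 2471, 2666 and 1970 to 4076, 4262 and 4167 CPM (0.83, SE 0.20).

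Among the deepest decreases under the same conditions, EDN3, the peptide endothelin-3, stood at 2.90, 3.22 and 23.0 CPM in untreated libraries and at 0.0474, 0 and 0.191 CPM in treated ones. It passed the test (adjusted p 1.06e-05), but with treated libraries near the counting limit no fold is given. TNFRSF11B, the decoy receptor osteoprotegerin, stood at 29.5, 28.7 and 67.6 CPM and fell to 0.805, 0.619 and 0.335 CPM (-5.98, SE 0.50; -6.56 without treated replicate 1 and -5.34 without treated replicate 3). HAS2, which makes hyaluronan, fell by 4.72 on the log2 scale, NFE2, a transcription factor of blood cells, by 4.65, and NEURL1B, an E3 ubiquitin ligase that acts on Notch ligands, fell by 4.04. Among abundant genes, the tyrosine kinase SYK stood at 804, 824 and 1152 CPM and fell to 131, 127 and 198 CPM (-2.62, SE 0.16, adjusted p 5.07e-06). SLC1A5, a glutamine transporter, went from 2194, 2288 and 2955 to 1083, 1059 and 1302 CPM (-1.11; -0.10 and not called under TMM scaling).

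In sum of reads, the 761 higher genes took 4.35% ± 0.815 (SD, n = 3) of untreated reads and 11% ± 0.0206 of treated reads. The 2165 lower genes went from 8.90% ± 1.30 to 3.48% ± 0.130. Genes were grouped by their call in this same comparison, so the direction of each sum was fixed beforehand and only its size is informative. Untreated replicate 3 was the low library for the first sum (3.41%) and the high library for the second (10.4%). FTH1, the ferritin heavy chain that stores iron, made the largest rise in CPM, from 8480, 8449 and 3963 to 14105, 13604 and 9706 (log2 fold change 0.91, SE 0.19, adjusted p 0.00169). Without the replicate block its adjusted p was 0.0593.

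Chaperones of the endoplasmic reticulum were higher throughout. All 13 tested genes of a 26-gene list of the unfolded protein response were called higher, with a median log2 fold change of 1.36 beside -1.03 for all tested genes. The same count held under TMM scaling, and 11 were called without the libraries numbered 3. The promoters of HSPA5, HSP90B1 and XBP1 carry the ER stress response element, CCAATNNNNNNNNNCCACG, on either strand between 250 bases before and 50 after the start. They are printed here from RefSeq (GRCh38.p14), 5′ to 3′ on the gene's strand, with the element in capitals. The HSPA5 window is chr9:125241294-125241593 (minus strand), that of HSP90B1 is chr12:103930160-103930459 (plus) and that of XBP1 is chr22:28800520-28800819 (minus).
HSPA5: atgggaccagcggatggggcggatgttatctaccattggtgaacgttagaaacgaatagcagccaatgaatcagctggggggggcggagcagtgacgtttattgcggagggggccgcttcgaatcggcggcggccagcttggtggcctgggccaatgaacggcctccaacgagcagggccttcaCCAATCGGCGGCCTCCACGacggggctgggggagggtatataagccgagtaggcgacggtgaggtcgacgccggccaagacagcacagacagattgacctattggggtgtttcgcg
HSP90B1: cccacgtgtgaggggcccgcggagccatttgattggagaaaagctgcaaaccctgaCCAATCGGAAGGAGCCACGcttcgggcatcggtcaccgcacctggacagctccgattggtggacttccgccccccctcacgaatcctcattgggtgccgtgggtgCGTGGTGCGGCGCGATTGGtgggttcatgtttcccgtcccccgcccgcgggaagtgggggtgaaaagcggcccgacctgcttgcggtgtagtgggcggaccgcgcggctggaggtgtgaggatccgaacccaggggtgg
XBP1: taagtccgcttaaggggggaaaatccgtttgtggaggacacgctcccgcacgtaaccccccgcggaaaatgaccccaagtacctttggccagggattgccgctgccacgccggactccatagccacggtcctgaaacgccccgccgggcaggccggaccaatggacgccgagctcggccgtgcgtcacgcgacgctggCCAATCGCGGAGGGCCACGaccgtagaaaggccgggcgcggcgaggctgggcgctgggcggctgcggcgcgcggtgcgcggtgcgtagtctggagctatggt
HSP90B1 holds the element on each strand and the others hold it once. It was present in 3 of the 12 list promoters found in RefSeq (25%), in 0.269% of 2603 promoters of tested genes and in 0.0806% of 27305 promoters in all; a match in letters is a description, not a site of binding.

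HSPA5 encodes BiP, the main chaperone of the endoplasmic reticulum. It stood at 650, 643 and 634 CPM in untreated libraries and at 4062, 3482 and 6649 CPM with GLY plus PUE. All treated libraries were far above all untreated ones and replicate 3 was the highest, with a log2 fold change of 2.81 (SE 0.31, adjusted p 5.15e-05). DNAJB9, a co-chaperone of BiP, followed with 1.93 (SE 0.39), HYOU1, a chaperone induced by lack of oxygen, with 1.65 (SE 0.25) and HERPUD1, which helps to clear misfolded proteins, with 1.62 (SE 0.32). HSP90B1, which encodes the chaperone GRP94, stood at 463, 448 and 656 CPM and rose to 925, 832 and 1615 CPM (1.06, SE 0.25). XBP1, a transcription factor of the response, stood at 126, 131 and 101 CPM and rose to 220, 208 and 285 CPM (0.98, SE 0.24). MANF rose by 1.43, SYVN1, the ligase HRD1, by 1.36 and PDIA4, a disulfide isomerase, by 1.26.

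Targets of ATF4, the transcription factor made when translation is slowed by stress, were higher too. Of 17 tested genes of a 33-gene list, 16 were called higher and only VLDLR, a lipoprotein receptor, lower, with a median of 1.26. Under TMM scaling the counts were 16 and 0, and without the libraries numbered 3 they were 13 and 1. DDIT3, which encodes the death-linked factor CHOP, stood at 111, 113 and 48.4 CPM and rose to 300, 254 and 355 CPM (1.82, SE 0.39, adjusted p 0.00171). PPP1R15A, the GADD34 subunit that restores translation, went from 632, 661 and 184 to 1725, 1681 and 1589 CPM (1.97, SE 0.40). In both genes untreated replicate 3 was the lowest library and the groups did not overlap. SESN2, a stress-induced inhibitor of growth signalling, rose by 2.34, ATF3 by 2.04, TRIB3 by 1.68, DDIT4, an inhibitor of mTORC1, by 1.63 and ASNS, which makes asparagine, by 1.08. CHAC1, which breaks down glutathione, rose by 0.92 but lost its call without the libraries numbered 3 (0.70, adjusted p 0.0852). VLDLR fell by 1.27 (-0.26 and not called under TMM scaling).

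All 9 tested genes of a 24-gene list of cytosolic heat shock proteins were higher, with a median of 2.09, and all 9 stayed so under TMM scaling and without the libraries numbered 3. HSPA1A stood at 99.4, 94.9 and 86.5 CPM and rose to 670, 547 and 801 CPM (2.81, SE 0.30, adjusted p 4.34e-05). HSPA1B rose by 2.09, but HSPA1A and HSPA1B are near-identical copies whose reads the counting could have split, so their separate levels are uncertain. HSPA6, a strictly inducible relative, went from 0.450, 0.604 and 0.299 to 4.97, 3.86 and 8.14 CPM (3.54, SE 0.44). The small chaperone CRYAB went from 0.300, 0.302 and 0.299 to 2.65, 3.14 and 4.74 CPM (3.51, SE 0.43), and HSPB8 rose by 2.95 (3.56 without untreated replicate 2). Among the abundant members, HSP90AA1 went from 3881, 3726 and 4017 to 8178, 7633 and 8513 CPM, a log2 fold change of 1.06 (SE 0.18), HSPH1 rose by 1.67, BAG3 by 1.46 and DNAJB1 by 0.87.

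Among 10 tested targets of NRF2, the factor of the antioxidant response, 8 were higher and 1 lower (median 1.22), with 9 and 1 under TMM scaling and 6 and 1 without the libraries numbered 3. HMOX1, which degrades heme, stood at 20.8, 22.5 and 9.37 CPM and rose to 137, 124 and 72.4 CPM (2.71, SE 0.29, adjusted p 4.73e-05). Replicate 3 was the lowest library in each group. SRXN1, sulfiredoxin, rose by 1.63, TXNRD1, thioredoxin reductase, by 1.38 and GCLC, the catalytic subunit for glutathione synthesis, by 1.37. GPX2, a glutathione peroxidase of the gut, went the other way under both scalings, from 3.90, 4.63 and 7.32 to 0.710, 0.714 and 0.814 CPM (-2.79, SE 0.39).

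Metallothioneins are small proteins that bind zinc and copper and are switched on by metals through short elements in their promoters. Of 7 tested genes on this list, 5 were higher (MT1E, MT1F, MT1X, MT2A and the zinc exporter SLC30A2) and 2 lower, MT1A and the zinc importer SLC39A10, neither called lower under TMM scaling. The windows of MT2A (chr16:56608334-56608633, plus strand) and MT1X (chr16:56682220-56682519, plus strand) are shown because both genes rose together and both hold several metal elements, TGCACNC or TGCGCNC on either strand, in capitals.
MT2A: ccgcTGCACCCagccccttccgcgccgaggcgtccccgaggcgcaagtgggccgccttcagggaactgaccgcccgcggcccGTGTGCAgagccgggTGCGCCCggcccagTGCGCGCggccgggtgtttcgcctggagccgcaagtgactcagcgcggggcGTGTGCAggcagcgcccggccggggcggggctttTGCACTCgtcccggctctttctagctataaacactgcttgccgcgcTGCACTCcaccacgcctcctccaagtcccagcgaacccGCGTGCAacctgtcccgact
MT1X: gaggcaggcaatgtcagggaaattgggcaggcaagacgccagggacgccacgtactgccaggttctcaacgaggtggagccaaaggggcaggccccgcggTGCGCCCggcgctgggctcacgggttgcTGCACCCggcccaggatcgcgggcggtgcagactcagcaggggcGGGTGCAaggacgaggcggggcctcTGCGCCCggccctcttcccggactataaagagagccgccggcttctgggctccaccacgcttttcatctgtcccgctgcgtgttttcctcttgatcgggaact
Each form was found in 3 of the 4 list promoters in RefSeq (75%, in MT1X, MT2A and SLC30A2), against 13.3% and 27.5% of promoters of tested genes and 11.9% and 20.0% of all promoters. MT2A stood at 566, 523 and 392 CPM and rose to 1674, 1623 and 1552 CPM (1.73, SE 0.20, adjusted p 5.97e-05). MT1X rose by 1.70, MT1E by 1.27, MT1F by 0.85 and SLC30A2 by 2.23; the call of MT1F was lost without the libraries numbered 3 (0.55, adjusted p 0.0729). MT1A went from 11.6, 12.4 and 17.2 to 6.57, 6.36 and 7.29 CPM (-1.01, SE 0.24; -0.01 under TMM scaling). SLC39A10 fell by 1.05 but lost its call without untreated replicate 1 (-0.92), untreated replicate 3 (-0.95) or treated replicate 3 (-0.82). It was not called without the libraries numbered 3 either. Metallothionein genes are near copies of each other, so the level of any single one is uncertain.

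**Figure D2:**
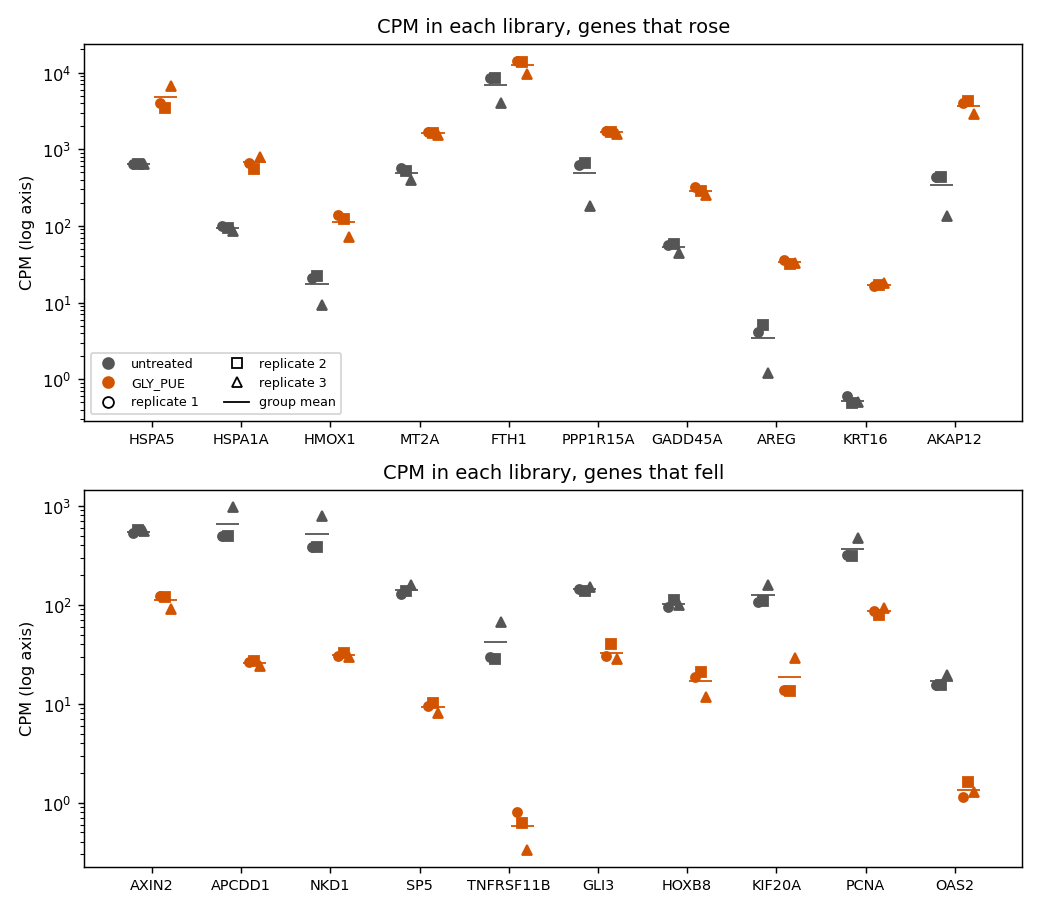
CPM per library (vertical, log axis) of 20 genes in untreated (grey) and GLY plus PUE (orange) cells, with a marker shape for each replicate and a line at each group mean (n = 3). In the upper panel every treated library lies above every untreated one, as for FTH1 from 3963 to 8480 against 9706 to 14105 CPM, and in the lower panel every treated library lies below.

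Several genes of growth arrest and the response to DNA damage were higher. Of 10 tested genes of a 28-gene list, 7 were called higher and 2 lower (median 1.35), beside 22.2% and 63.1% of all tested genes. Under TMM scaling the counts were 7 and 0. CDKN1A, the cell cycle inhibitor p21, stood at 82.4, 87.4 and 64.6 CPM and rose to 220, 218 and 211 CPM (1.48, SE 0.19, adjusted p 0.000123). GADD45A, a growth arrest protein, went from 55.6, 57.7 and 44.6 to 319, 289 and 257 CPM (2.46, SE 0.26). SFN, 14-3-3 sigma, rose by 1.57, the kinase PLK3 by 1.70 and the death receptor TNFRSF10B by 1.22. DDB2, a sensor of UV damage, fell by 1.41 and RRM2B, a ribonucleotide reductase subunit, by 0.98, neither called under TMM scaling (-0.40 and 0.02). RRM2B also lost its call without untreated replicate 1 (-0.84), untreated replicate 3 (-0.95), PUE replicate 2 (-0.99) or 3 (-0.98), or treated replicate 2 (-0.95) or 3 (-0.74). It was not called without the libraries numbered 3 either. TP53INP1 was not called (-0.57, adjusted p 0.111), except without GLY replicate 1 (-0.58) and with the 6 libraries alone (-0.58, adjusted p 0.0176).

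Immediate early genes answer growth factors and stress within minutes. Here 18 of 21 tested were higher with 1 lower, DUSP6 (median 1.63), beside 22.2% and 63.1% of all tested genes. Under TMM scaling 18 were higher and 0 lower, and without the libraries numbered 3 the counts were 17 and 0. FOSL1, the AP-1 subunit FRA-1, stood at 421, 478 and 123 CPM and rose to 1205, 1208 and 946 CPM (1.93, SE 0.33). JUN rose by 1.71, KLF6 by 2.05 and EGR1 by 1.18, and of the phosphatases that switch off MAP kinases DUSP5 rose by 2.38 and DUSP1 by 1.99. FOSB rose by 1.40, but its adjusted p was 0.0673 without the replicate block. DUSP6, which acts on ERK, fell by 0.89. It lost its call without untreated replicate 1 (-0.74), treated replicate 2 (-0.81) or the libraries numbered 3. Under TMM scaling it stood at 0.12.

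Among ligands of the EGF receptor, AREG, HBEGF and EREG rose. AREG, amphiregulin, stood at 4.15, 5.03 and 1.20 CPM and rose to 35.6, 32.3 and 32.7 CPM (3.40, SE 0.52, adjusted p 0.000283). HBEGF went from 11.3, 11.2 and 4.98 to 76.6, 69.5 and 69.7 CPM (3.06, SE 0.32), and EREG, epiregulin, rose by 2.69. In all 3 ligands untreated replicate 3 was the lowest library and the groups were well apart. The receptor EGFR rose from 118, 120 and 70.7 to 285, 330 and 242 CPM (1.48, SE 0.44), and its call was lost without the libraries numbered 3 (1.35, adjusted p 0.0883). Its partner ERBB3 fell by 1.73 (-0.72 under TMM scaling, still called). Over 11 tested genes of this list 5 were higher and 4 lower, beside 22.2% and 63.1% of all tested genes. Under TMM scaling the counts were 5 and 1. The other lower members, LRIG3 (-1.09), SPRY2 (-0.89) and SPRED2 (-0.74), are inhibitors of receptor signalling, and each lost its call in several fits without 1 library. For LRIG3 these left out untreated replicate 3 (-0.84) or treated replicate 2 (-1.13) or 3 (-0.67), and for SPRY2 untreated replicate 1 (-0.78) or 3 (-0.86) or treated replicate 2 (-0.84) or 3 (-0.74). For SPRED2 they left out any untreated replicate (-0.59, -0.81 and -0.81), PUE replicate 2 or 3 (-0.74 each) or any treated replicate (-0.85, -0.70 and -0.69). The count of lower genes fell to 2 without untreated replicate 1 and to 1 without untreated replicate 3, treated replicate 2 or treated replicate 3. It was also 1 without the libraries numbered 3. The calls of SPRY2 and SPRED2 were also lost without the replicate block (adjusted p 0.0605 and 0.0717).

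Targets of YAP, the effector of the Hippo pathway, were higher in 5 of 7 cases with 1 lower (median 1.53). The shares of all tested genes were 22.2% higher and 63.1% lower. Under TMM scaling the list counts were 5 and 0. AXL, a receptor kinase, rose by 2.11, CYR61, a matrix protein, by 1.87 and F3, tissue factor, by 1.16. TGFB2, the lower member (-1.03), lost its call without untreated replicate 1 (-0.73) or 3 (-1.06), PUE replicate 2 (-1.04) or 3 (-1.02), GLY replicate 2 (-1.01), any treated replicate (-1.05, -1.25 and -0.80), or the replicate block (-0.98, adjusted p 0.0696). It was not called without the libraries numbered 3 either.

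Genes of the matrix, integrins and proteases went both ways, with 15 higher and 11 lower of 28 tested (median 1.21). Higher calls were more frequent here than among all tested genes (22.2% higher, 63.1% lower, median -1.03). Under TMM scaling the counts were 15 and 1. The protease urokinase, PLAU, stood at 4.99, 4.60 and 1.25 CPM and rose to 21.2, 21.2 and 17.8 CPM (2.62, SE 0.35). Its receptor PLAUR rose by 1.66. The laminin chain LAMB3 rose by 1.48 and ITGA3, an integrin chain that binds laminin, by 1.5. MMP14, a membrane-bound protease, rose by 1.46 and TIMP3, an inhibitor of such proteases, by 1.16. COL4A2, a collagen of the basement membrane, fell by 1.84 (-0.83 under TMM scaling, still called).

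Several keratins of stratified epithelium rose. Of 16 tested genes of keratins and the cornified envelope 10 were higher and 4 lower (median 1.12), beside 22.2% and 63.1% of all tested genes. Under TMM scaling the counts were 12 and 0. Beside KRT16, KRT6A rose by 1.90, KRT17 by 2.49, KRT81 by 1.65 and KRT80 by 1.17. SPRR2D, an envelope precursor, went from 6.42, 5.58 and 2.64 to 39.9, 37.8 and 91.1 CPM (3.53, SE 0.61; 2.87 without treated replicate 3), and replicate 3 was the lowest untreated and the highest treated library. S100A2 rose by 1.54. KRT6B, at 0.627, 0.703 and 0.367 CPM untreated, stood at 0.0639, 0.148 and 0 CPM after treatment and was called lower, but it lies at the counting limit and shares sequence with KRT6A. The desmosome proteins DSC2 (-1.16, and -0.85 and not called without treated replicate 3) and PKP1 (-1.11) and the protease KLK7 (-1.03) were lower by total reads only. DSC2 was not called without the libraries numbered 3 either.

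Of 16 tested NF-kB and inflammatory genes 12 were higher and 3 lower (median 1.11), beside 22.2% and 63.1% of all tested genes. The counts were 12 and 1 under TMM scaling and 7 and 3 without the libraries numbered 3. IL11, a cytokine of the interleukin-6 family, stood at 5.76, 6.13 and 3.21 CPM and rose to 48.5, 48.0 and 51.4 CPM (3.33, SE 0.28, adjusted p 1.55e-05), with no overlap. CSF2, the growth factor GM-CSF, rose from 0.599, 1.26 and 0.299 to 5.07, 5.33 and 1.87 CPM (2.54, SE 0.36). The lower members were TNFRSF11B, described above, ICAM1, an adhesion molecule (-1.42), and TNFRSF1B, a TNF receptor (-1.33); only TNFRSF11B was called lower under TMM scaling.

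The plot of calls by list sets these counts side by side.

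**Figure D3:**
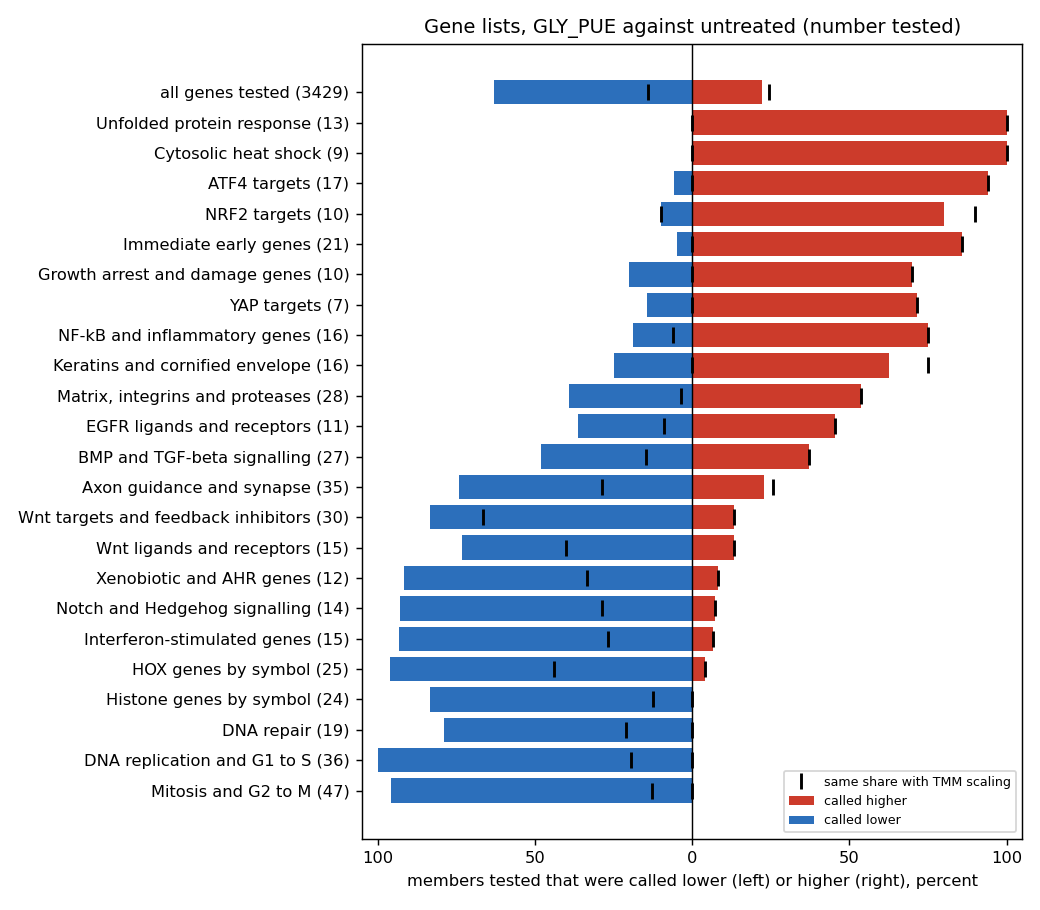
Percent of each list's tested members called higher (red, to the right) or lower (blue, to the left) in GLY plus PUE against untreated, with black marks for TMM scaling and the number tested in brackets. By total reads the unfolded protein response and heat shock lists are wholly higher, while the replication list is wholly lower and the HOX list lower in 24 of 25.

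Wnt ligands and receptors were mostly lower. Of 15 tested of a 40-gene list, 11 were called lower and 2 higher (median -1.75, beside -1.03 for all tested genes), and under TMM scaling 6 and 2. WNT6 stood at 73.5, 71.4 and 68.6 CPM and fell to 8.24, 8.23 and 6.44 CPM (-3.23, SE 0.33, adjusted p 3.63e-05; -2.22 under TMM scaling). WNT5A, a ligand that also acts without beta-catenin, went from 101, 99.9 and 120 to 19.6, 23.4 and 22.5 CPM (-2.30, SE 0.42), and WLS, the protein that carries Wnt ligands to the cell surface, fell by 2.00. Among receptors, FZD2 fell by 2.31. The 2 higher members were WNT9A and FZD10. WNT9A went from 28.9, 27.1 and 6.53 to 144, 145 and 103 CPM (2.83, SE 0.41, adjusted p 0.000209). FZD10 was higher by 1.19 but its groups overlapped, and its adjusted p was 0.0587 without the replicate block.

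The intracellular components moved less. Of 8 tested of 29, 5 were lower and 1 higher (median -1.09), with 1 and 1 under TMM scaling. CTNNB1, beta-catenin, stood at 677, 664 and 819 CPM and at 360, 366 and 296 CPM after treatment (-1.07, SE 0.33, adjusted p 0.0124). That change was close to the shift of the whole table: under TMM scaling it was -0.06, and the call was lost without untreated replicate 1 (-0.94) or treated replicate 3 (-0.88). The CTNNB1 call was also lost without the libraries numbered 3. APC stood at 59.2, 58.4 and 47.8 CPM and at 39.6, 48.9 and 32.1 CPM, with overlapping groups and no call (-0.48, SE 0.57, adjusted p 0.424); without untreated replicate 1 the difference was -0.16, and it was called without GLY replicate 1 (-0.47, adjusted p 0.00171) and with the 6 libraries alone (-0.47, adjusted p 0.0139). The transcription factor LEF1 fell by 1.38 and the corepressor TLE4 from 17.2, 16.6 and 23.5 to 3.40, 3.06 and 2.39 CPM (-2.67, SE 0.25). The change of TLE4 was called under both scalings, and that of LEF1 (-0.37 under TMM scaling) by total reads only. DVL1, which relays the receptor's signal, rose by 0.85.

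Targets and feedback inhibitors of Wnt signalling fell by far more. Of 30 tested of a 38-gene list 25 were called lower and 4 higher, with a median of -2.16. Under TMM scaling 20 were lower and 4 higher, and without the libraries numbered 3 the counts were 25 and 3. AXIN2, the feedback scaffold most used as a readout of the pathway, stood at 529, 566 and 552 CPM in untreated and at 123, 120 and 90.6 CPM in treated libraries. The groups were tight and apart, a log2 fold change of -2.31 (SE 0.19, adjusted p 1.55e-05; -1.31 under TMM scaling). APCDD1, a membrane inhibitor of Wnt, went from 497, 499 and 967 to 26.4, 27.3 and 23.9 CPM (-4.60, SE 0.35), and NKD1, which binds Dishevelled, from 380, 381 and 787 to 30.2, 32.9 and 29.4 CPM (-3.97, SE 0.31). In both, untreated replicate 3 was the highest library, and the treated libraries were close together. The ligases that remove Wnt receptors, RNF43 and ZNRF3, fell by 3.04 and 1.83, and the transcription factors SP5 and ASCL2, the latter of intestinal stem cells, by 3.97 and 3.04.

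LGR5, a receptor that marks intestinal stem cells, stood at 1.35, 1.11 and 5.18 CPM in untreated and at 0.0474, 0 and 0.191 CPM in treated libraries, where the counts are too few for a fold. The cyclin CCND1 went from 1742, 1813 and 1481 to 665, 728 and 414 CPM (-1.51, SE 0.20; -0.51 and still called under TMM scaling). DKK4, a secreted inhibitor, went from 14.4, 16.2 and 70.3 to 1.04, 1.02 and 1.19 CPM (-4.57, SE 0.51), while its relative DKK1 rose from 9.09, 9.46 and 8.72 to 32.1, 32.6 and 21.2 CPM (1.65, SE 0.28). MYC, a driver of cell growth and a textbook target of beta-catenin, was also higher: 350, 369 and 513 CPM against 1219, 1269 and 1198 CPM (1.61, SE 0.21, adjusted p 0.000135). The 2 other higher members were the angiogenic factor VEGFA (1.12) and the tight junction protein CLDN1 (1.42; 1.31 and not called without the libraries numbered 3, adjusted p 0.0509). SOX9, a factor of crypt cells, was not called (-0.74, adjusted p 0.0828); it passed with the 6 libraries alone (-0.76, adjusted p 0.0403), without GLY replicate 1 (-0.76) or without treated replicate 1 (-1.06), and stood at -0.40 without treated replicate 3.

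Notch and Hedgehog genes were mostly lower, and BMP and TGF-beta genes were mixed. Of 14 tested Notch and Hedgehog genes 13 were lower and 1 higher, HES7 (1.42), with a median of -1.5. The shares of all tested genes were 63.1% lower and 22.2% higher. Under TMM scaling the list counts were 4 and 1. PTCH1, the receptor and a target of Hedgehog, stood at 125, 124 and 139 CPM and fell to 19.4, 21.9 and 11.5 CPM (-2.91, SE 0.35, adjusted p 8.27e-05). The transducer SMO fell by 3.15, the ligand SHH by 1.48, and the factors GLI3 and GLI1 by 2.16 and 2.00. PTCH1, SMO and GLI3 were also called lower under TMM scaling, and SHH and GLI1 were not; SHH also lost its call without the libraries numbered 3 (-1.29, adjusted p 0.0517). Of 27 tested BMP and TGF-beta genes 13 were lower and 10 higher (median -0.79, above the -1.03 of all tested genes), with 4 and 10 under TMM scaling. BMP4 went from 119, 123 and 146 to 17.5, 21.6 and 18.0 CPM (-2.77, SE 0.24) and the target ID2 from 158, 159 and 145 to 24.4, 24.1 and 11.7 CPM (-2.99, SE 0.26), and BAMBI, a decoy receptor, fell by 2.19. The BMP inhibitor NOG rose by 1.81, the activin chain INHBA by 3.04 and GDF15 by 1.03. The size for INHBA is uncertain, since it ran from 1.16 to 4.03 over the alternatives. A further BMP inhibitor, GREM1, was at 0.0999, 0 and 0 CPM in untreated and at 1.66, 1.90 and 3.02 CPM in treated libraries. SMAD4, the shared signal transducer, rose by 1.23 from a low level (2.19, 2.73 and 2.49 to 5.38, 5.92 and 5.98 CPM).

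HOX genes, which set position along the body axis and stay on in adult gut, fell in each of the 4 clusters. Of 25 tested, 24 were lower and 1 higher (median -1.63), beside 63.1% and 22.2% of all tested genes (median -1.03). Under TMM scaling the counts were 11 and 1. All 10 tested genes of the HOXA cluster were lower, between -2.54 and -0.81 (median -1.79), and all 5 of HOXB, between -2.62 and -1.35 (median -1.72). The 7 of HOXC were lower between -2.38 and -0.99 (median -1.38), and HOXD gave 2 lower and 1 higher. HOXB8 stood at 95.4, 111 and 99.5 CPM and fell to 18.6, 20.9 and 11.8 CPM (-2.62, SE 0.36), and HOXA7 went from 45.6, 47.3 and 81.4 to 9.0, 10.6 and 9.53 CPM (-2.54, SE 0.27). HOXB13, a gene of the hindgut end, fell by 2.32, HOXA5 fell by 1.79 and HOXC6 fell by 2.29. Transcripts of HOXC4, HOXC5 and HOXC6 share exons, so their separate levels are uncertain. The higher gene was HOXD4, which rested on treated replicate 3: it stood at 0.699, 1.01 and 0.847 CPM and at 1.37, 1.67 and 5.36 CPM (1.58), and lost its call without that library (0.83) or untreated replicate 3 (1.32). HOXD4 was not called without the libraries numbered 3 either.

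**Figure D4:**
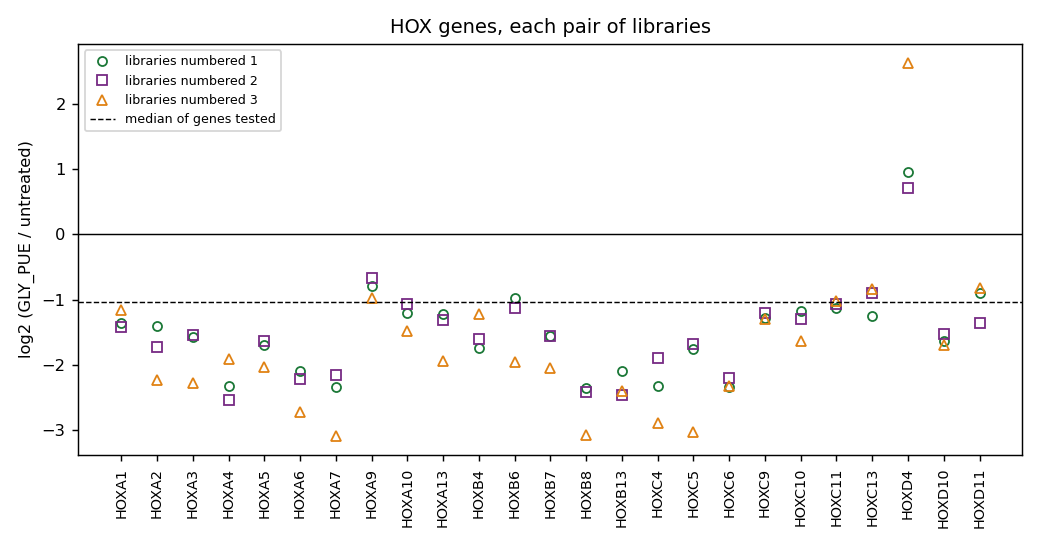
Log2 ratio of GLY plus PUE to untreated CPM within each number-matched pair (3 points per gene) for the 25 tested HOX genes, in order along the clusters, with a dashed line at the median of all tested genes (-1.03). All 3 pairs lie below 0 for every gene but HOXD4, whose pair of libraries numbered 3 is the highest.

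Genes of intestinal identity moved about as the whole table did, with 4 of 7 tested lower and 1 higher (median -1.12). Among all tested genes 63.1% were lower and 22.2% higher (median -1.03). Under TMM scaling 1 of the list was lower and 1 higher. CDX2, the factor that holds intestinal identity, stood at 65.3, 68.5 and 85.5 CPM and fell to 11.3, 12.3 and 10.3 CPM (-2.69, SE 0.29, adjusted p 4.67e-05; -1.68 under TMM scaling). VIL1, villin of the brush border, fell by 1.12 (-0.11 and not called under TMM scaling). CEACAM1, an adhesion molecule, rose from 3.99, 3.00 and 7.17 to 15.3, 17.8 and 34.0 CPM (2.23, SE 0.19), with replicate 3 the highest in each group.

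Genes of cell division were lower with few exceptions, by amounts near the shift of the whole table. All 36 tested genes of DNA replication and the G1 to S step were called lower (median -1.26), and 45 of 47 mitotic genes (median -1.36). Of all tested genes 63.1% were lower (median -1.03). Under TMM scaling 7 and 6 remained called lower and none was higher, and without the libraries numbered 3 the counts were 31 and 38. PCNA, the sliding clamp, fell further than most, from 317, 311 and 475 to 87.6, 78.9 and 93.0 CPM (-2.05, SE 0.21, adjusted p 3.44e-05; -1.05 under TMM scaling). E2F2, a driver of S phase, went from 12.3, 12.8 and 16.6 to 1.61, 2.00 and 3.59 CPM (-2.57, SE 0.24). ORC1, of the origin recognition complex, fell by 1.83 and UHRF1, which maintains DNA methylation, by 1.94, both called under TMM scaling, while the helicase subunit MCM2 (-1.30), E2F1 (-1.58) and the reductase RRM2 (-1.33) were called by total reads only.

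Of the mitotic genes, the kinesin KIF20A stood at 106, 110 and 160 CPM and fell to 13.8, 13.5 and 29.1 CPM (-2.81, SE 0.23, adjusted p 1.55e-05; -1.80 under TMM scaling). The kinase AURKA fell by 1.69, KIFC1 by 1.45 and CCNB1, cyclin B1, by 1.36. MKI67, the usual proliferation marker, went from 480, 414 and 348 to 153, 197 and 197 CPM (-1.19, SE 0.29; -0.18 and not called under TMM scaling). KIF14 (-1.17, adjusted p 0.0614) and ECT2 (-0.76, adjusted p 0.148), both needed for cytokinesis, were not called; both passed without GLY replicate 1 (-1.15 and -0.76) and with the 6 libraries alone (-1.15 and -0.76, adjusted p 0.00030 and 0.00206), and KIF14 also by DESeq2 (adjusted p 0.0360). CDKN2C, an inhibitor of cyclin D kinases, fell with them, from 14.1, 13.5 and 18.9 to 1.85, 2.14 and 2.78 CPM (-2.78, SE 0.21). Of 19 tested repair genes 15 were lower and 0 higher, beside 63.1% lower and 22.2% higher among all tested genes. The list median of -0.93 was above the -1.03 of all tested genes, and under TMM scaling it was 0.077. Lower calls numbered 4 under TMM scaling, 8 without the libraries numbered 3 and 9 without untreated replicate 1. NEIL3, a glycosylase of oxidised bases, fell by 2.35, RMI2, of the Bloom complex, by 1.94 and FANCL, of the Fanconi complex, by 1.82.

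In all, 10 motifs were searched, each in the promoters of 1 list, and most of the mitotic promoters hold 2 of them. TTTGAA, the cell cycle homology region, was found on either strand in 30 of the 43 list promoters in RefSeq (69.8%), against 12.9% of promoters of tested genes and 15.4% of all. CCAAT was found in 33 of 43 (76.7%), against 38.5% and 35.7%. The windows of CDK1, the kinase that starts mitosis (chr10:60778081-60778380, plus strand), and TOP2A, which untangles chromosomes (chr17:40417847-40418146, minus strand), hold both and are shown with the matches in capitals; ATTGG and TTCAAA are the same motifs on the other strand.
CDK1: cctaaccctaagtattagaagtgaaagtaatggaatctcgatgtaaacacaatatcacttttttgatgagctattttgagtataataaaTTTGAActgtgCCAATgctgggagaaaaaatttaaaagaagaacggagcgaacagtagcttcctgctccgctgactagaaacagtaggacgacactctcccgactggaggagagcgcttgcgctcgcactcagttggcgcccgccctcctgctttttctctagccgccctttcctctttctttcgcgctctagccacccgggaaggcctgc
TOP2A: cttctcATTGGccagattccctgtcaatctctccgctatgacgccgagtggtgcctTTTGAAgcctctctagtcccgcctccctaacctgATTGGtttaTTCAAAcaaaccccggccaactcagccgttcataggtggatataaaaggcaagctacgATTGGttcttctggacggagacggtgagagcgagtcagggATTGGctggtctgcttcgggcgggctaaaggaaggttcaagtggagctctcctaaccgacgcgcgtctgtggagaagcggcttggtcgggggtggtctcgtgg
CDK1 stood at 90.9, 91.3 and 114 CPM and fell to 34.7, 33.3 and 55.2 CPM (-1.30, SE 0.29), and TOP2A went from 476, 447 and 430 to 140, 157 and 206 CPM (-1.46, SE 0.29). In both genes the highest treated library was replicate 3, and neither was called under TMM scaling.

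The other 5 motifs were found at shares from 0 to 42.9% of their lists. TGATGNAA, the amino acid response element, was in 4 of 15 promoters of ATF4 targets (26.7%, against 1.84% of tested and 3.67% of all promoters). The heat shock element GAANNTTCNNGAA was in 1 of 8 heat shock promoters (12.5%, against 0.346% and 0.487%), and TGACNNNGC, the antioxidant response element, in 3 of 7 of NRF2 targets (42.9%, against 14.2% and 13.6%). CTTTGA, the TCF motif, was in 3 of 16 promoters of Wnt targets (18.8%, against 9.1% and 13.1%). The AP-1 motif TGACTCA was in 0 of 15 promoters of immediate early genes, against 4.03% and 4.92%; these windows hold only the bases next to the start.

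Interferon-stimulated genes, which defend against viruses, were lower in 14 of 15 tested cases (median -1.49), beside 63.1% of all tested genes (median -1.03). The counts were 4 lower and 1 higher under TMM scaling and 10 and 0 without the libraries numbered 3. OAS2, a sensor of double-stranded RNA, stood at 15.5, 15.6 and 19.6 CPM and fell to 1.14, 1.62 and 1.29 CPM (-3.64, SE 0.21, adjusted p 5.07e-06; -2.63 under TMM scaling). Its relatives OAS3 and OAS1 fell by 2.06 and 2.28 and IFIT3 by 1.62. CMPK2 stood at 0.749, 0.805 and 1.25 CPM and at 0.0474, 0 and 0.144 CPM, too few counts for a fold. ISG20, an RNA exonuclease, was the higher member (0.87), and lost its call without untreated replicate 1 (0.72), untreated replicate 3 (0.77) or treated replicate 3 (0.76). It was not called without the libraries numbered 3 either.

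Of 12 tested xenobiotic genes 11 were lower and 1 higher (median -1.54), beside 63.1% and 22.2% of all tested genes (median -1.03). Under TMM scaling the counts were 4 and 1. CYP1A1, a main target of the aryl hydrocarbon receptor, fell by 1.76 and AHRR, its repressor, by 1.30, neither called under TMM scaling (-0.75 and -0.29). The conjugating enzyme UGT1A6 fell by 2.18 under total reads and 1.17 under TMM scaling. ALDH1A3, which makes retinoic acid, went from 241, 252 and 367 to 77.0, 81.4 and 47.7 CPM (-2.04, SE 0.37). CYP26A1, which breaks retinoic acid down, was at 1.45, 1.16 and 2.59 CPM and at 0, 0.0952 and 0 CPM. The sulfotransferase SULT2B1 rose by 2.03.

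Of 35 tested genes of axon guidance and synapses 26 were lower and 8 higher (median -1.24), near the shares of all tested genes (63.1% lower, 22.2% higher, median -1.03), and 10 and 9 under TMM scaling. SEMA3A stood at 11.5, 11.4 and 34.6 CPM and fell to 1.14, 1.57 and 1.72 CPM (-3.52, SE 0.41), and SEMA6B and SEMA3F, also semaphorins that steer growing axons, fell by 3.20 and 3.03. NCALD, a neuronal calcium sensor, went from 3.40, 3.77 and 4.73 to 0.142, 0.0952 and 0.144 CPM, at or under the counting limit after treatment. SEMA7A, a membrane-anchored semaphorin, rose from 4.74, 4.43 and 3.19 to 38.4, 38.0 and 27.5 CPM (3.07, SE 0.19, adjusted p 5.07e-06), so members of this family moved in both directions under both scalings.

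Longer genes were called higher less often, and the share called lower did not rise steadily with length. Among tested genes with a transcript under 2 kb, 31.7% of 575 were called higher, and this share was 25.4% of 1118 from 2 to 4 kb, 19.8% of 555 from 4 to 6 kb and 17.2% of 319 above 6 kb. The shares called lower were 62.6%, 68.3%, 66.1% and 59.9%, and the median log2 fold changes -1.06, -1.05, -0.99 and -0.87. Length was derived from counts and FPKM, and only in genes with enough of both. It was available for 631 of 761 higher, 1682 of 2165 lower and 254 of 503 uncalled genes, so low-level genes are missing unevenly. Among those with a length, the median transcript was 2.74 kb in higher, 3.21 kb in lower and 4.28 kb in uncalled genes. The median GC content of the promoter window was 66.3%, 64.7% and 62.7% in higher, lower and uncalled genes with a promoter. RNA quality values were not used here, and their part in this pattern was not tested.

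No gene passed the test between the combination and GLY alone, whose values are given side by side below. GLY plus PUE was set against GLY alone in the same edgeR fit, with the limit that the GLY libraries are labelled 12, 13 and 14 h and the combination 12 h. Of 3429 genes, 0 (0.0%) passed at an adjusted p under 0.05; 115 had an unadjusted p under 0.05, DESeq2 called 0 (112 unadjusted) and limma-voom 0 (160 unadjusted). Leaving out treated replicate 2 gave 1 call. AXIN2 stood at 101, 126 and 92.1 CPM with GLY alone and at 123, 120 and 90.6 CPM with GLY plus PUE, a difference of 0.07 on the log2 scale with a 95% interval from -0.35 to 0.48. HSPA5 stood at 2773, 3550 and 7672 CPM with GLY and at 4062, 3482 and 6649 CPM with the combination (0.06, interval -0.58 to 0.70). The 2 groups overlapped in both genes, and replicate 3 was the highest for HSPA5 in each.

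For MYC the values were 709, 1289 and 1260 CPM with GLY and 1219, 1269 and 1198 CPM with the combination (0.22, interval -0.24 to 0.68). CTNNB1 stood at 107, 367 and 299 CPM with GLY against 360, 366 and 296 CPM (0.49, interval -0.25 to 1.23), and AKAP12 at 1010, 4198 and 2571 against 4033, 4211 and 2891 CPM (0.51, interval -0.52 to 1.54). In these last 2 genes GLY replicate 1 was far below every other GLY and GLY plus PUE library, and both intervals reach past 1 log2 unit. KRT16 was at 33.0, 17.1 and 23.1 CPM with GLY (-0.47, interval -1.02 to 0.09). Over all tested genes the interval of the difference lay within 1 log2 unit of 0 in 1777 (51.8%), and in the rest it reached 1 log2 unit or more in at least 1 direction. The genes with the smallest p were NOS1 (1.28, SE 0.30), NNAT (1.61, SE 0.38), CIDEB (1.18, SE 0.29), SYNJ2BP-COX16 (-1.89, SE 0.47), a read-through of neighbouring genes whose level is uncertain, and SPIN2A (1.69, SE 0.44), each with an adjusted p of 0.771.

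With PUE alone, AXIN2 stood at 532, 538 and 600 CPM and HSPA5 at 682, 685 and 628 CPM, beside 650, 643 and 634 CPM in untreated cells. The test of whether PUE changed a gene differently with GLY than without it (an interaction term) called 0 of 3429 genes, with 58 at an unadjusted p under 0.05, 0 by DESeq2 (44) and 0 by limma-voom (59); leaving out treated replicate 2 gave 1 call. The interaction was 0.04 (interval -0.54 to 0.62) for AXIN2 and 0.01 (-0.90 to 0.91) for HSPA5, and its interval lay within 1 log2 unit of 0 in 1067 genes (31.1%). The smallest p belonged to TDRD10 (2.95, SE 0.56), CNKSR2 (2.53, SE 0.60), LOC101928589 (-3.13, SE 0.87), MATN1 (1.44, SE 0.41) and the read-through gene CORO7-PAM16, which was at 0 in all PUE and GLY libraries; each adjusted p was 0.975. The comparisons with untreated cells and with GLY share the treated libraries and are given side by side only.

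**Figure D5:**
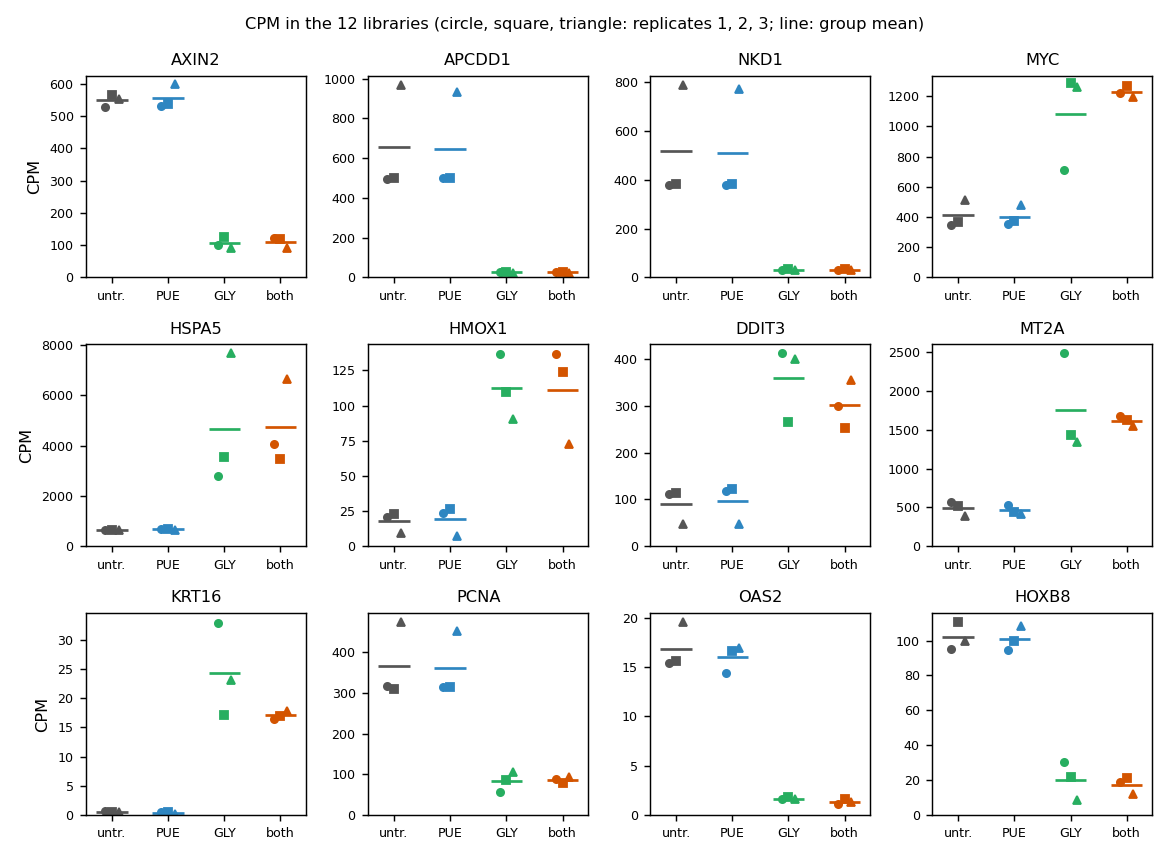
CPM per library (vertical) of 12 genes in untreated, PUE, GLY and GLY plus PUE cells (3 libraries each, with a line at each mean). For AXIN2 the untreated and PUE libraries lie between 529 and 600 CPM and the GLY and GLY plus PUE libraries between 90.6 and 126 CPM.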

How the data were processed

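The deposited table holds, for 3699 genes in 12 libraries, an estimated count (Read Count) and an expression value for which the header gives no unit; it behaves as FPKM, per the file headers and values. The table also holds the authors' log2 ratios and their q-values for 6 group comparisons. Every listed gene reached an absolute log2 ratio of 1 and a q-value of 0.001 in at least 1 of these deposited comparisons. The submitters' processing notes name TopHat and DESeq 1.32.0 without a role; how reads were counted, and on which build, is not given in the sources used here. Of the counts, 58.2% are whole numbers, and the rest were rounded before testing. Sequencing was on a BGISEQ-500 from 0.5 µg of RNA, per the labels' protocols. The extraction text there mentions retinas, which does not match a cell line, so only the parts that match were used.

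The total of each library follows from dividing counts by FPKM in 625 genes, set to scale with GENCODE 29 lengths of 29 genes (20.0 M reads in the first untreated library, interquartile range 19.9 to 20.2). All 12 libraries, 19.5 M to 21.1 M reads, were fitted with edgeR 4.0.16 in R 4.3.3 (quasi-likelihood test, robust, filterByExpr), with group and replicate number as terms and no further scaling; p-values were adjusted by Benjamini-Hochberg over 3429 genes and called under 0.05. The number was used as a block because libraries were paired by replicate number in this comparison. Same-numbered libraries of the 2 groups deviated together (r = 0.19, 0.19 and 0.38 across genes). Numbers 1 and 2 also correlated with each other (0.18 and 0.23), so the values do not single out pairing by number for these. The fit was first run on simulated counts with known changes in a small part of the genes and no library lying apart. Most genes of the real table were called, so that run does not show how the fit performs on it. Alternatives used DESeq2 1.42.0, limma 3.58.1, TMM and RLE scaling, other filters and left-out libraries.

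Members and gene lists were chosen with earlier results of these data known. Genes named are the 12 largest increases and decreases, the 8 largest rises and falls in CPM, up to 4 of each of 46 lists by p, and the 5 smallest p of the other contrasts (201 genes), with 91 added after their values were seen. A few genes that this rule or the lists name are not reported here. Gene symbols of 7 genes turned into dates were restored. Promoters and motifs come from RefSeq (GRCh38.p14).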

Additional observations from a re-analysis of the deposited data

How the results depend on the processing

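The count of genes higher than in untreated cells stayed within 1.5 times of 761 in all alternatives run: 609 with a stricter filter, 794 with no filter, 751 with the 6 libraries alone, 837 under RLE scaling, 761 by DESeq2, 755 by limma-voom and 750 by limma on log2 FPKM. The count of lower genes (2165) moved with the scale, to 484 under TMM scaling, 527 under RLE scaling, 394 under TMM scaling with no replicate block and 298 under TMM scaling without the libraries numbered 3; TMM and RLE scaling centre on the listed genes by construction. DESeq2 gave 2170 lower genes, limma-voom 2153, limma on log2 FPKM 2123, the 6 libraries alone 2257, no filter 2274 and the stricter filter 1644. Leaving out each library in turn gave between 650 and 794 higher and between 1824 and 2444 lower genes, and between 0 and 1 call both for GLY plus PUE against GLY and for the interaction. Both single calls came without GLY plus PUE replicate 2. The 2 alternatives with TMM scaling and a second change were chosen after seeing the data.

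The replicate number was kept as a block. With no replicate block 694 genes were higher and 1957 lower, and of 292 gene results 285 kept their direction and side of the threshold while 7 lost their call: FTH1, FOSB, FZD10, SPRY2, SPRED2, TGFB2 and PCDHAC2 (-1.17, adjusted p 0.102); the cause was not tested.

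Under TMM scaling 214 of the 292 gene results kept direction and call, 64 kept direction only and 14 changed sign, none of which passed the test. By DESeq2 290 kept both and 2 gained a call. Without the libraries numbered 3, 24 lost their call and 268 kept both. With the 6 libraries alone, and without GLY replicate 1, 6 gained a call.

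These genes were below 0 by total reads (called or not) and above 0 otherwise. Under TMM scaling the log2 fold changes above 0 were APC 0.52, CDCA5 0.000521, DUSP6 0.12, ECT2 0.25, IDI1 0.11, MED13 0.33, NCAPG 0.026, RBM20 0.18, RBMXL1 0.27, RRM2B 0.018, SOX9 0.27, SPRED2 0.27, SPRY2 0.12 and TP53INP1 0.43. Under RLE scaling the log2 fold changes above 0 were APC 0.50, DUSP6 0.092, ECT2 0.22, IDI1 0.084, MED13 0.30, RBM20 0.15, RBMXL1 0.24, SOX9 0.24, SPRED2 0.24, SPRY2 0.091 and TP53INP1 0.40. Under TMM scaling with no replicate block the log2 fold changes above 0 were APC 0.54, DUSP6 0.11, ECT2 0.25, IDI1 0.065, MED13 0.38, NCAPG 0.035, RBM20 0.18, RBMXL1 0.27, RRM2B 0.013, SOX9 0.35, SPRED2 0.27, SPRY2 0.099, TGFB2 0.032 and TP53INP1 0.43. Under TMM scaling without the libraries numbered 3 the log2 fold changes above 0 were ACSS2 0.18, APC 0.48, CTNNB1 0.041, DSC2 0.069, ECT2 0.25, IDI1 0.31, LRIG3 0.33, MED13 0.40, MT1A 0.033, PCDHGB7 0.090, RBM20 0.22, RBMXL1 0.24, RRM2B 0.15, SLC39A10 0.13, SOX9 0.61, SPRED2 0.18, SPRY2 0.17, TGFB2 0.052, TMEM97 0.094 and TP53INP1 0.42.

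Depth limits the rarest genes: at 3 counts a level under 0.151 CPM in the shallowest of the 6 libraries cannot be told from 0, so no fold is given for EDN3, LGR5, CMPK2, CYP26A1, NCALD or GREM1. The table lists genes selected by the authors in these libraries, so shares of changed genes are no estimate for the whole transcriptome.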

Other observations

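Of 6 tested clock genes 3 were higher and 3 lower (3 and 1 under TMM scaling). ARNTL (BMAL1) and its partner NPAS2, the positive arm of the clock, rose by 1.90 and 1.12 on the log2 scale. ARNTL stood at 22.2, 20.4 and 18.3 CPM in untreated and at 68.9, 65.7 and 98.7 CPM in treated libraries, and the repressor NFIL3 rose by 1.69. DBP, an output gene of the clock that competes with NFIL3 for the same sites, went from 7.19, 7.29 and 10.8 to 1.61, 1.48 and 1.20 CPM (-2.54, SE 0.39), and was called lower under TMM scaling too (-1.54); PER3 and TEF, the other lower members, named after their values were seen, were called by total reads only. Of 54 genes of the proteasome and autophagy 3 are in the table and all 3 rose: MAP1LC3B, the autophagosome marker, from 259, 246 and 159 to 629, 634 and 678 CPM (1.56, SE 0.29), WIPI1 by 1.30 and the kinase ULK1 by 0.96. Hypoxia targets were split, with 5 of 11 higher and 6 lower (median -0.81), and 5 and 4 under TMM scaling. Among all tested genes 22.2% were higher and 63.1% lower (median -1.03). The glycolytic enzyme HK2 rose from 63.0, 62.7 and 84.7 to 290, 278 and 305 CPM (2.08, SE 0.40), while EPAS1, the factor HIF-2 alpha, went from 441, 452 and 1186 to 144, 157 and 142 CPM (-2.03, SE 0.39) and EGLN3, which marks HIF for destruction, fell by 2.58. Both were also called lower under TMM scaling. There EPAS1 lost its call without the libraries numbered 3 (-0.65, adjusted p 0.282) or without the replicate block (-1.16, adjusted p 0.0506).

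Among channels and carriers, several members fell under both scalings. Of 24 tested potassium channel genes 15 were lower and 6 higher (median -1.05; 5 and 6 under TMM scaling), about the shares of all tested genes (63.1% lower, 22.2% higher, median -1.03). KCNJ5, an inward rectifier, stood at 110, 106 and 185 CPM and fell to 18.2, 19.4 and 25 CPM (-2.65, SE 0.23), KCNJ10 fell by 3.98, KCNE3, a subunit of intestinal potassium channels, by 3.15 and KCNJ8 by 2.83. Of 72 solute carriers 49 were lower and 11 higher (median -1.02), again about the shares of all tested genes, with 9 and 13 under TMM scaling. SLC7A8, which carries neutral amino acids, went from 422, 438 and 640 to 61.7, 70.0 and 69.5 CPM (-2.88, SE 0.21). Of 24 tested histone genes 20 were lower and 0 higher (median -1.36), beside 63.1% and 22.2% of all tested genes. Under TMM scaling 3 were lower, beside 14.1% of all tested genes. Histone genes are near copies of each other, so single levels are uncertain. Of 7 tested regulators of apoptosis 5 were lower and 2 higher (median -1.14), near the shares of all tested genes, with 1 and 2 under TMM scaling. BMF, a BH3-only killer, fell by 2.83 and the survival protein BCL2 by 1.32 (-0.31 and not called under TMM scaling), while the death receptor TNFRSF10B rose by 1.22. CASP2 and CASP6 were called lower by total reads only (-0.18 and -0.07 under TMM scaling).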
